A study of Rattus norvegicus with 6 samples.

Results

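Matrix metalloproteases (MMPs), ADAMs, ADAMTS proteases and their TIMP inhibitors were examined in cultured rat oligodendrocyte precursor cells (OPCs), the dividing cells of the oligodendrocyte lineage. The members were all 75 genes, of 32883 in the deposited table, whose name is Mmp, Adam, Adamts, Adamtsl or Timp followed by a digit. They comprised 22 Mmp, 26 Adam, 19 Adamts, 4 Adamtsl and 4 Timp genes. The OPCs came from cerebral cortices of Sprague Dawley rats on postnatal day 0, pooled within a culture, and were shaken off a mixed glial culture before plating in serum-free medium with B27 and N2. One group received 5 μM ZJU-37, an inhibitor of the RIPK1 kinase derived from Nec-1s, and the other an equal volume of its solvent DMSO. The labels give a treatment of 36 h, and the methods of the study give a shorter time. Each group had 3 poly-A RNA-seq libraries, which the study calls biological repeats in its methods and plate wells elsewhere. The sources do not say whether they came from separate cultures, so the p-values measure the spread between these libraries, which may be partly technical. The study asked how ZJU-37 alters transcription in OPCs, and the comparison of ZJU-37 with DMSO is the only one the design allows.

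MMPs are zinc-dependent proteases that cut collagens, proteoglycans and other proteins outside the cell. Some are secreted, whereas the membrane-type MMPs stay anchored at the cell surface. ADAMs are membrane proteins, several of which release the outer parts of growth factors and receptors, and others of which lack protease activity and act in adhesion. ADAMTS proteases are secreted and bind the matrix, where some cut lecticans, the proteoglycans around glia and neurons. TIMPs are secreted proteins that block these enzymes. In the oligodendrocyte lineage such proteases are known for their part in process outgrowth, migration and the clearance of inhibitory matrix.

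Library totals ran from 13935865 to 24097927 counts, so that 3 counts corresponded to between 0.124 and 0.215 CPM (counts scaled to a common library size), a limit that covers counting error only. CPM values below are scaled by the TMM method unless another unit is named. All 9 OPC markers found in the table had counts, and their summed level was 3951 to 4591 CPM in DMSO and 4441 to 6118 CPM in ZJU-37. They moved in both directions, 4 of the 9 rising and 4 falling in edgeR. Markers of other cells were present as well. The 12 mature oligodendrocyte markers summed to 11453 to 22825 CPM in DMSO and to 4838 to 10116 CPM in ZJU-37, and the 12 microglia markers to 2548 to 4396 CPM and 1843 to 3866 CPM. The 10 astrocyte markers summed to 1045 to 1679 CPM in DMSO and 931 to 1392 CPM in ZJU-37, and the 9 fibroblast and mural markers to 104 to 182 CPM and 54.4 to 130 CPM. The 8 neuron markers summed to 921 to 1278 CPM and 831 to 1225 CPM, and the 6 endothelial markers, 1 of them at 0, reached at most 23.5 CPM in a library. In such bulk libraries, fewer cells of a type and less RNA per cell cannot be told apart.

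Among the membrane-type MMPs, the largest rise was that of Mmp15, which had 198 ± 23.2 CPM in DMSO and 636 ± 17.7 CPM in ZJU-37 (mean ± SD, n = 3 each), a rise of 3.21-fold, followed by Mmp16, which rose from 77.7 ± 4.08 CPM to 154 ± 15.8 CPM. Adam12 and Adam19, 2 related ADAMs, rose by 2.38-fold and 1.49-fold. Among the secreted ADAMTS proteases, Adamts1, Adamts7, Adamts10 and Adamts20 rose, whereas Adamts4 fell. Adam11, a brain ADAM without protease activity, fell further than Adamts4, from 59.1 ± 11.6 CPM to 22.3 ± 7.13 CPM. Of the inhibitors, only Timp4 passed the threshold in this fit, with a rise of 1.43-fold.

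Of the 75 members, 15 had no count in any library and another 7 had between 1 and 9 counts in all. The filter on low counts left 45 members, and the 8 other members with 10 or more counts did not pass it. In edgeR's quasi-likelihood test 9 of the 45 rose and 2 fell (adjusted p-value under 0.05), or 24.4%, against 15.0% of the 14670 tested genes. Of all tested genes 9.43% rose and 5.58% fell, against 9 and 2 of the 45 members. The median log2 fold change was 0.10 over the tested members and -0.03 over all tested genes. The ZJU-37 libraries lay entirely above the DMSO libraries in 13 tested members and entirely below them in 6, where 19.0% and 16.2% of all tested genes did so (35.2% in either direction). Without DMSO replicate 2, 5 members passed the threshold, all 5 higher, and without ZJU-37 replicate 3, 7 did, 6 of them higher. Over all tested genes 1306 of 14940 and 1351 of 14877 passed in these fits.

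Both groups carry replicate numbers 1 to 3, and same-numbered libraries deviated together. With the replicate number as a block, edgeR called 22 of the 45 members, 14 higher and 8 lower, or 48.9%, against 32.1% of all tested genes (16.2% higher and 15.9% lower). These 22 included all 11 called without the block.

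**Figure D1:**
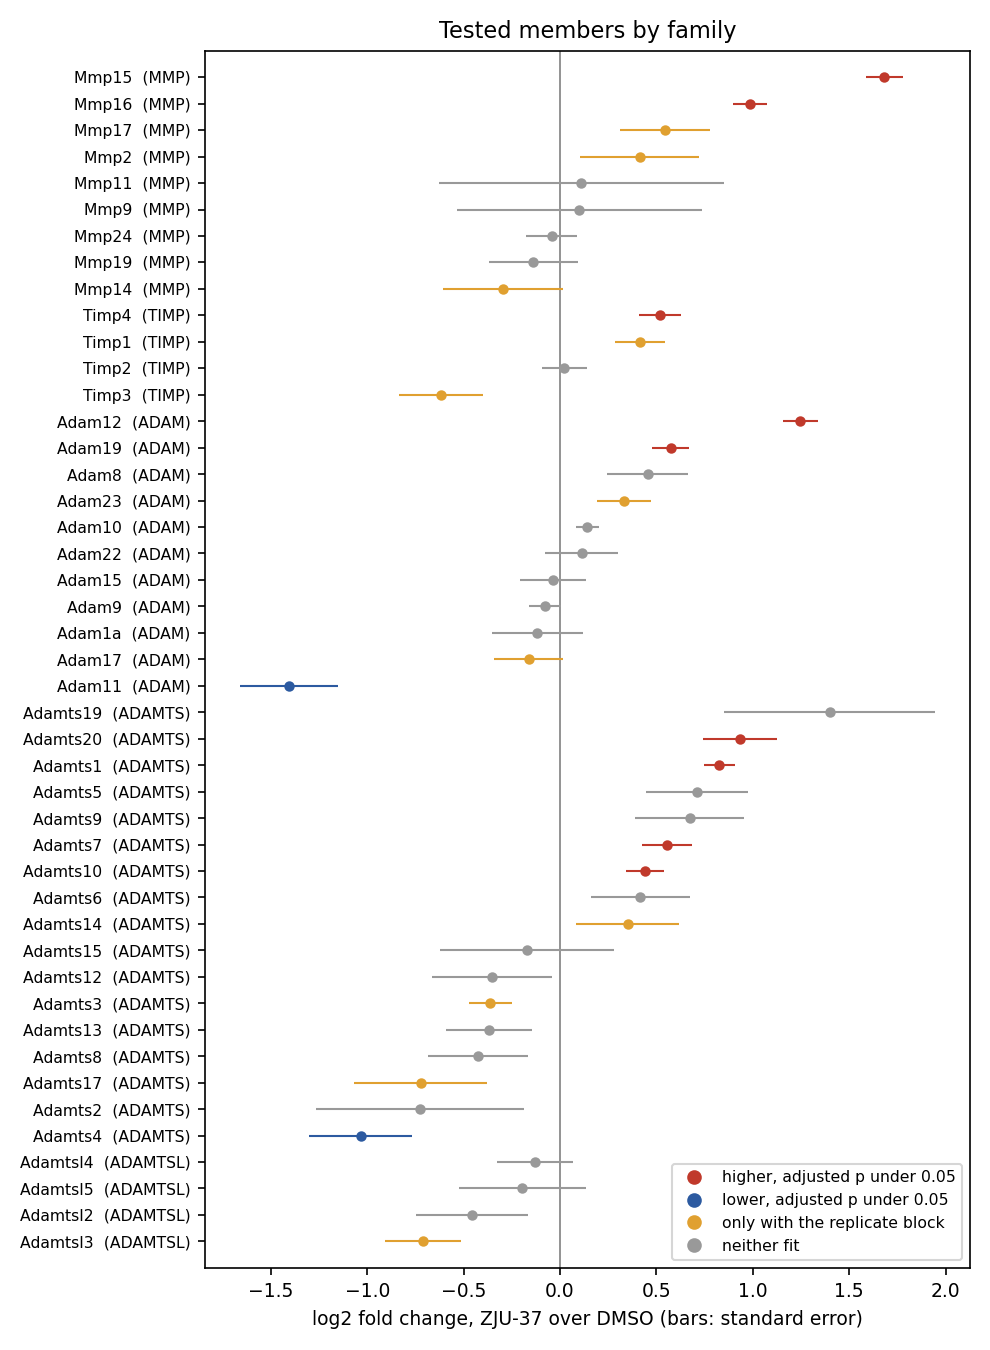
Log2 fold change of ZJU-37 over DMSO for the 45 tested members, ordered within each family, with bars for the standard error. Red and blue points mark the 9 higher and 2 lower members of the fit without the block, yellow points the 11 called only with the replicate block, and grey points those called in neither. Mmp15 (1.68) lies farthest to the right of the called members and Adam11 (-1.41) farthest to the left.

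The sequence before the transcription start is shown for Mmp15, Adam12 and Adamts1, 3 of the members that rose, and for Adamts4, which fell. These are the 250 bases before the RefSeq gene start in build GRCr8, read 5′ to 3′ on the gene's strand. They span chr19:9691001-9691250 (minus strand) for Mmp15, chr1:198443681-198443930 (minus) for Adam12, chr11:38427385-38427634 (minus) for Adamts1 and chr13:86202761-86203010 (plus) for Adamts4. Capitals mark the motifs searched, on both strands and with overlaps allowed: the GC box, the TATA box, the CCAAT box, the AP-1 motif and the NF-κB motif.
Mmp15: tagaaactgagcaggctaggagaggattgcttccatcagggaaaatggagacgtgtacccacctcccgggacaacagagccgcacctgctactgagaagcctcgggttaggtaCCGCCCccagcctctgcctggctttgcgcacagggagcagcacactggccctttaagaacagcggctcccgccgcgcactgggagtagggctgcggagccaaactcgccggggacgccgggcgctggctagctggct
Adam12: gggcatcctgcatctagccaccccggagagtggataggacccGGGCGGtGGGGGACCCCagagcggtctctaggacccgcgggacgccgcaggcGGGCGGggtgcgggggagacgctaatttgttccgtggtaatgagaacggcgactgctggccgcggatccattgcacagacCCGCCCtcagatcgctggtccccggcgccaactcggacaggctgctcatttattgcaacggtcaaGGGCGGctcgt
Adamts1: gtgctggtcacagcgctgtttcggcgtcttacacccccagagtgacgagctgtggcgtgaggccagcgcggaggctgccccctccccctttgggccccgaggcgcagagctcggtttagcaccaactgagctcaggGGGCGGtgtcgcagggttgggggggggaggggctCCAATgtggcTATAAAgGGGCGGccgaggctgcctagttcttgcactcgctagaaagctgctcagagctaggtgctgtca
Adamts4: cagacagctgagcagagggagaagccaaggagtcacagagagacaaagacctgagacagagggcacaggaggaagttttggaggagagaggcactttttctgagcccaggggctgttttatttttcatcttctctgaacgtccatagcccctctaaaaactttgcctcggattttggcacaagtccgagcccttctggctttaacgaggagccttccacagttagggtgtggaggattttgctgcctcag
The Adam12 sequence held 4 GC boxes and the NF-κB motif, none of them overlapping. Mmp15 held 1 GC box, Adamts1 held 2 GC boxes, a TATA box and a CCAAT box, and Adamts4 held none of the motifs. A sequence was found for 51 of the 75 members, among them 9 of the 11 that passed the threshold. The GC box (GGGCGG) was in 25 of the 51 sequences (49.0%) and in 30.5% of all 33469 sequences of that length. The TATA box (TATAAA) was in 16 of the 51 (31.4%) against 12.9% of all, and the AP-1 motif (TGANTCA) in 8 (15.7%) against 6.34%. The CCAAT box was in 14 (27.5%) against 34.0%, and the NF-κB motif in 2 (3.92%) against 3.54%. Of the 8 sequences whose genes rose, 6 held the GC box, 3 the TATA box and 3 the CCAAT box. The AP-1 motif and the NF-κB motif were in 1 each. The median number of CG steps was 9 in the 51 sequences and 5 in all. A match is a description of these letters and not a site of binding.

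Of the 9 tested MMPs 2 rose without the block, both of the membrane type, where 9.43% of all tested genes rose. With the block 4 were higher, the secreted Mmp2 among them, and 1 was lower, against 16.2% and 15.9% of all tested genes. Mmp15 (ENSRNOG00000012622), which encodes the membrane-type protease MT2-MMP, has the coordinates chr19:10079765-10101451 (minus strand) in the table, whose build is not named and whose positions, here and for other genes, differ from those of GRCr8. In the order of replicates 1, 2 and 3, as in all such lists below, its level was 224, 191 and 180 CPM with DMSO and 654, 619 and 636 CPM with ZJU-37. Each ZJU-37 library lay far above each DMSO library. The log2 fold change was 1.68 (standard error 0.10), with an adjusted p-value of 2.70e-04 from edgeR. Mmp16 (ENSRNOG00000005708), which encodes MT3-MMP, had 82.0, 73.8 and 77.3 CPM in DMSO and 171, 140 and 151 CPM in ZJU-37. The groups again did not overlap, with a log2 fold change of 0.99 ± 0.09 (SE, adjusted p = 7.46e-04, edgeR).

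Mmp14, which encodes MT1-MMP, an activator of the gelatinase MMP2, had 157, 236 and 264 CPM in DMSO and 106, 206 and 223 CPM in ZJU-37. Replicate 1 was the lowest library of both groups, and the groups overlapped. The groups had a log2 fold change of -0.30 ± 0.31 (SE, adjusted p = 0.603, edgeR). With the replicate block it was -0.33 (standard error 0.07, adjusted p = 0.0107, edgeR), the ZJU-37 library being lower in all 3 pairs. Mmp17, which encodes the lipid-anchored MT4-MMP, had 9.72, 6.72 and 5.31 CPM in DMSO and 11.8, 9.36 and 10.4 CPM in ZJU-37. Its groups overlapped only between DMSO replicate 1 and ZJU-37 replicate 2. The adjusted p-value was 0.183 without the block and 0.0180 with it (log2 fold change 0.57, edgeR). Mmp24, which encodes MT5-MMP, had means of 60.9 ± 8.21 CPM and 59.0 ± 7.66 CPM (mean ± SD, n = 3 each), and its log2 fold change of -0.04 had a standard error of 0.13.

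The gelatinases, secreted enzymes that cut basement membrane collagen, varied more between replicates than between groups. Mmp9 had 27.4, 35.6 and 89.1 CPM in DMSO and 21.6, 44.9 and 96.7 CPM in ZJU-37. Replicate 3 was the highest library of each group. The log2 fold change was 0.10 with a standard error of 0.64, and it was not past the threshold with the block either (adjusted p = 0.729, edgeR). Mmp2 had 32.4, 26.4 and 55.4 CPM in DMSO and 45.1, 41.1 and 65.9 CPM in ZJU-37. Here too replicate 3 was the highest of each group, while the groups overlapped. The adjusted p-value of Mmp2 was 0.453 without the block, and 0.00253 with it at a log2 fold change of 0.45 (edgeR). The summed fibroblast and mural markers were also highest in replicate 3 of each group, at 182 and 130 CPM, as were the astrocyte markers, and their part in the Mmp2 and Mmp9 values was not tested.

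The remaining tested MMPs were Mmp19, a broadly expressed secreted enzyme, and Mmp11, known as stromelysin-3. Mmp19 had 31.3 ± 4.93 CPM in DMSO and 28.5 ± 8.21 CPM in ZJU-37 (mean ± SD, n = 3 each), and Mmp11 had 1.18 ± 0.905 CPM and 1.33 ± 0.737 CPM. Neither passed the threshold in either fit. Of the 13 untested MMPs, 6 had no count in any library and 3 had fewer than 10 counts in all. The other 4 were Mmp3, Mmp12, Mmp13 and Mmp23, with 11, 33, 28 and 50 counts over the 6 libraries, and they are named here after their values were seen.

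Levels of different genes can be compared only per length, and the deposited FPKM values (fragments scaled by gene length and library size) were used for that. In DMSO the highest of the 75 members were Timp2, Mmp14 and Mmp15, with mean FPKM of 144, 89.4 and 49.2. In ZJU-37 the order was Mmp15, Timp2 and Mmp14, with mean FPKM of 158, 146 and 72.6. Mmp15 and Timp2 overlapped in ZJU-37, since Mmp15 had 153 to 164 FPKM and Timp2 127 to 157 FPKM over the 3 libraries. Mmp16 moved from the 10th to the 5th place in mean FPKM, and Adamts4 from the 6th to the 11th. Mmp15 made up 23.4% to 34.1% of the summed FPKM of the 5 membrane-type MMPs in DMSO and 50.9% to 59.2% in ZJU-37.

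**Figure D2:**
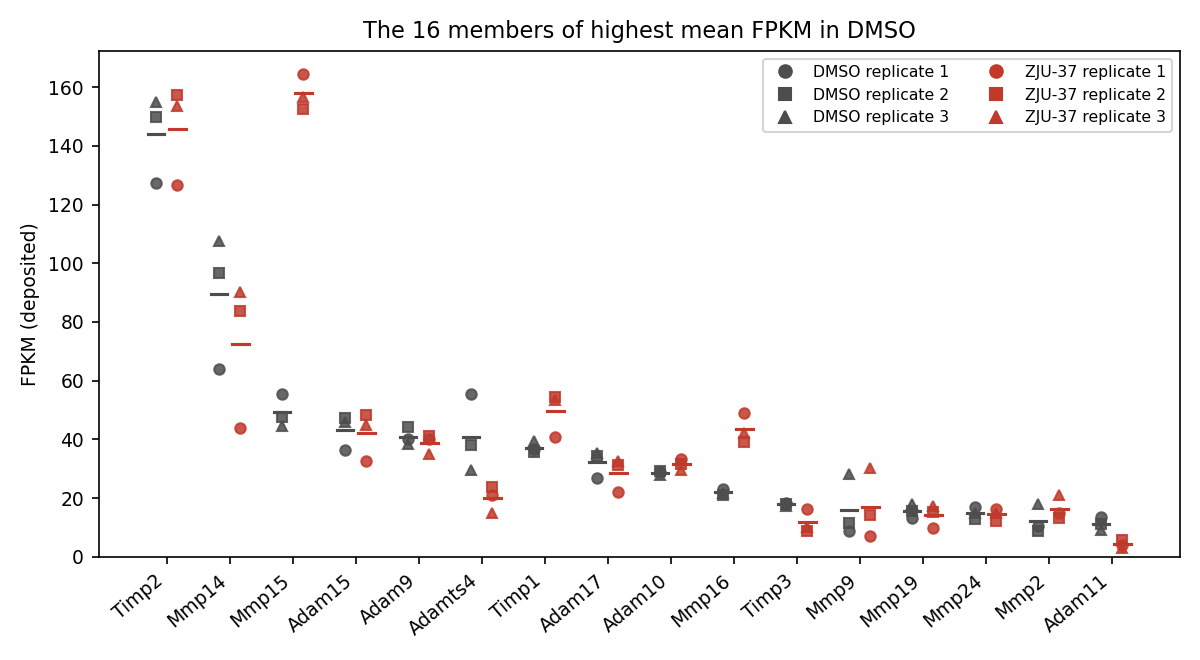
Deposited FPKM of the 16 members with the highest mean in DMSO, with 1 point per library (grey DMSO, red ZJU-37; circle, square and triangle for replicates 1, 2 and 3) and a line at each group mean. Mmp15 rises from 44.6 to 55.5 FPKM in the DMSO libraries to 153 to 164 FPKM in the ZJU-37 libraries, and Timp2 stays at 127 to 157 FPKM.

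The summed FPKM of the 5 membrane-type MMPs was 163, 181 and 191 with DMSO and 278, 291 and 307 with ZJU-37. The groups did not overlap (p = 0.1 in a two-sided exact permutation test, which can go no lower with 3 libraries in each group). The summed FPKM of the 4 TIMPs was 188, 209 and 217 in DMSO and 192, 228 and 226 in ZJU-37, and the groups overlapped. All 75 members together took 0.204% to 0.217% of the counts of a DMSO library and 0.252% to 0.267% of those of a ZJU-37 library. Without Mmp15 the shares were 0.182% to 0.199% and 0.184% to 0.203%, so that the groups overlapped.

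Of the 4 TIMPs, 1 passed the threshold without the block and 3 with it, where 15.0% and 32.1% of all tested genes did so. Timp2, the inhibitor of highest level, had 213, 249 and 259 CPM in DMSO and 209, 264 and 259 CPM in ZJU-37. Its groups covered nearly the same range, with a log2 fold change of 0.02 ± 0.12 (SE, adjusted p = 0.927, edgeR). Timp4 had 10.0, 9.38 and 9.03 CPM in DMSO and 14.0, 12.5 and 14.2 CPM in ZJU-37. The DMSO libraries all lay below the ZJU-37 libraries, with a log2 fold change of 0.52 ± 0.11 (SE, adjusted p = 0.0228, edgeR). Leaving out DMSO replicate 2, DMSO replicate 3 or ZJU-37 replicate 3 raised the adjusted p-value of Timp4 to 0.0847, 0.0830 and 0.0864 in the same edgeR test.

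Timp1, an inhibitor with growth factor-like activity, had 27.4, 26.3 and 29.4 CPM in DMSO and 29.95, 40.7 and 40.1 CPM in ZJU-37. The groups did not overlap, although ZJU-37 replicate 1 lay close to the DMSO libraries. The adjusted p-value was 0.0810 without the block and 0.0108 with it (log2 fold change 0.41, edgeR). Timp3, which encodes the matrix-bound TIMP and an inhibitor of ADAM17, had 32.6, 31.6 and 30.7 CPM in DMSO and 28.5, 15.6 and 17.9 CPM in ZJU-37. Again ZJU-37 replicate 1 lay nearest to DMSO while the groups did not overlap. Its adjusted p-value was 0.119 without the block and 0.0318 with it (log2 fold change -0.66, edgeR). Without ZJU-37 replicate 1 the edgeR fit without the block called both genes, with adjusted p-values of 0.00774 for Timp1 and 0.00278 for Timp3.

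Timp1, Timp3 and Timp4 lie within the annotated spans of Syn1, Syn3 and Syn2, synapsin genes on the opposite strand. The library kit named in the labels does not mark strand, the counting setting is not given in the sources used here, and reads of such overlapping genes cannot then be told apart where their exons meet. Syn1 had 7775 counts in all against 3756 for Timp1, and rose with ZJU-37 as well (log2 fold change 0.65, adjusted p = 0.0446, edgeR). Syn3 and Syn2 had 913 and 652 counts, against 2866 for Timp3 and 1333 for Timp4. Their log2 fold changes were 0.14 and -0.01 (adjusted p = 0.774 and 0.988, edgeR).

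Among the 11 tested ADAMs, the meltrins Adam12 and Adam19 rose and Adam11 fell, where 9.43% of all tested genes rose and 5.58% fell. Adam12 (ENSRNOG00000018384, meltrin alpha), known to shed growth factor precursors, has the coordinates chr1:205956342-206282575 (minus strand). It had 29.4, 32.4 and 36.0 CPM in DMSO and 82.3, 74.6 and 75.6 CPM in ZJU-37. The groups were far apart, with a log2 fold change of 1.25 ± 0.09 (SE, adjusted p = 4.30e-04, edgeR). Adam19 (meltrin beta), known to process neuregulin, had 65.2, 58.4 and 65.0 CPM in DMSO and 104, 83.8 and 92.9 CPM in ZJU-37. The groups did not overlap, at a log2 fold change of 0.57 ± 0.09 (SE, adjusted p = 0.00857, edgeR).

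The principal sheddases, ADAM10 and ADAM17, did not pass the threshold without the block. Adam10, the alpha-secretase that also cuts Notch, had 110, 111 and 106 CPM in DMSO and 125, 122 and 113 CPM in ZJU-37. Every ZJU-37 library was above every DMSO library, but the log2 fold change of 0.14 (standard error 0.06) did not pass the threshold without the block (adjusted p = 0.181) or with it (adjusted p = 0.0599, edgeR). Adam17, which releases TNF and several EGF receptor ligands, had 111, 141 and 146 CPM in DMSO and 90.0, 130 and 135 CPM in ZJU-37. Replicate 1 was the lowest of each group, as for Mmp14, and the 6 libraries stood in the same order for both genes. The adjusted p-value of Adam17 was 0.618 without the block and 0.0446 with it, at a log2 fold change of -0.17 (edgeR). The summed microglia markers were lowest in replicate 1 of each group too, at 2548 and 1843 CPM. They were highest in replicate 2 of each group, whereas Mmp14 and Adam17 were highest in replicate 3. The part of these markers in the Mmp14 and Adam17 values was not tested. Adam9 and Adam15, broadly expressed ADAMs with protease activity, had log2 fold changes of -0.08 (standard error 0.08) and -0.03 (standard error 0.17), and neither passed the threshold with the block. Adam8 had 4.35 ± 0.829 CPM in DMSO and 5.98 ± 1.05 CPM in ZJU-37 (mean ± SD, n = 3 each), with an adjusted p-value of 0.215 in edgeR. Adam1a, a testis-type ADAM annotated as a pseudogene in these data, had a log2 fold change of -0.12 with a standard error of 0.24.

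The ADAMs without protease activity, Adam11, Adam22 and Adam23, are known as neural adhesion proteins, and 1 of the 3 passed the threshold without the block. Adam11 (ENSRNOG00000002753) had 71.4, 57.6 and 48.3 CPM in DMSO and 21.4, 29.9 and 15.7 CPM in ZJU-37. Each ZJU-37 library lay below each DMSO library, with a log2 fold change of -1.41 ± 0.25 (SE, adjusted p = 0.0140, edgeR). Without DMSO replicate 2 the adjusted p-value was 0.0502. Adam23 had 30.8, 23.8 and 23.1 CPM in DMSO and 36.8, 29.6 and 31.3 CPM in ZJU-37. Its groups overlapped, but every ZJU-37 library was above its DMSO pair, and the adjusted p-value was 0.174 without the block and 0.00626 with it (log2 fold change 0.34, edgeR). Adam22 had 9.83 ± 1.25 CPM in DMSO and 10.6 ± 2.39 CPM in ZJU-37 (mean ± SD, n = 3 each), and the log2 difference of 0.11 had a standard error of 0.19. Its annotated span overlaps that of Dbf4 on the same strand, a cell cycle gene with 494 counts in all that rose with ZJU-37, so the Adam22 counts are uncertain.

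Of the 15 untested ADAMs, 9 had no count in any library, 3 had fewer than 10 counts in all, and the other 3 were Adam4, Adam32 and Adam33 with 34, 17 and 36 counts. In a library with no count, a level of up to 0.124 to 0.215 CPM, scaled by its total alone and not by TMM, is allowed, depending on that total.

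**Figure D3:**
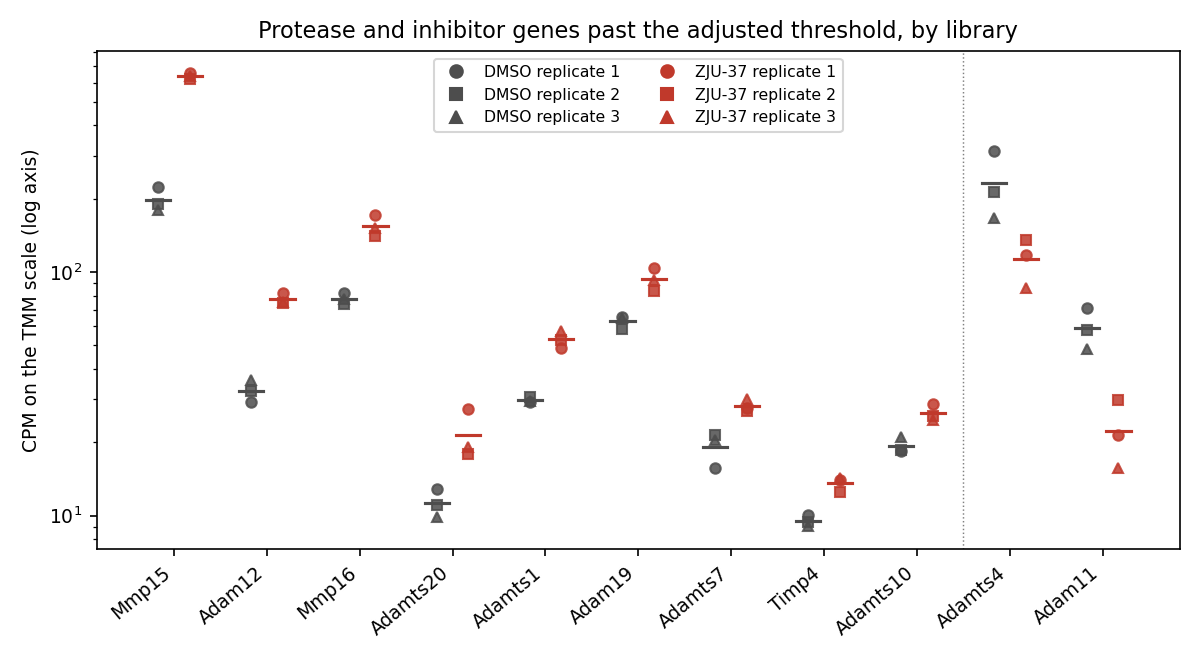
CPM by library, on a log axis, of the 11 members with an adjusted p-value under 0.05 in edgeR, ordered by log2 fold change, with a line at each group mean. The 9 genes to the left of the dotted line are higher in all ZJU-37 libraries (red) than in any DMSO library (grey), and Adamts4 and Adam11 to its right are lower.

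The secreted ADAMTS proteases moved in both directions, with 4 higher and 1 lower of 17 tested without the block. Of all tested genes 9.43% were higher and 5.58% lower in that fit. Adamts1 (ENSRNOG00000001607), an aggrecanase that also restrains vessel growth, had 29.3, 30.6 and 29.6 CPM in DMSO and 48.7, 52.4 and 57.5 CPM in ZJU-37. The DMSO libraries were nearly equal and all ZJU-37 libraries were above them. They gave a log2 fold change of 0.83 ± 0.08 (SE, adjusted p = 9.62e-04, edgeR). Adamts20, known from a mouse coat pigment mutation, had 12.9, 11.1 and 9.82 CPM in DMSO and 27.4, 17.9 and 19.1 CPM in ZJU-37. The groups did not overlap, and ZJU-37 replicate 1 was the highest (log2 fold change 0.93, standard error 0.19, adjusted p = 0.0206, edgeR). Without DMSO replicate 2 or DMSO replicate 3 its adjusted p-value was 0.0772 and 0.0762.

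Adamts7, which cuts cartilage oligomeric matrix protein, had 15.6, 21.4 and 20.4 CPM in DMSO and 27.6, 26.8 and 30.1 CPM in ZJU-37. Adamts10, which binds fibrillin microfibrils, had 18.5, 18.6 and 20.9 CPM in DMSO and 28.7, 25.6 and 24.6 CPM in ZJU-37. Neither gene overlapped between the groups. Their log2 fold changes were 0.56 (standard error 0.13, adjusted p = 0.0325, edgeR) and 0.44 (standard error 0.10, adjusted p = 0.0256, edgeR). Both lost the threshold in 5 of the 6 fits that left out a library, with adjusted p-values of at most 0.118 and 0.0975. Adamts7 stayed past it without DMSO replicate 1, and Adamts10 without DMSO replicate 3. With limma on log2(FPKM + 1) and log2(FPKM + 0.1) the adjusted p-values were 0.0577 and 0.0620 for Adamts7 and 0.0539 in both for Adamts10.

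Adamts4 (ENSRNOG00000003538), an aggrecanase known from mature oligodendrocytes, has the coordinates chr13:89622632-89634419 (plus strand). It had 315, 214 and 167 CPM in DMSO and 118, 136 and 85.7 CPM in ZJU-37, and in mean FPKM it was the highest of the ADAMTS genes in both groups. The CPM of the groups did not overlap, with a log2 fold change of -1.03 ± 0.27 (SE, adjusted p = 0.0487 without the block and 0.0297 with it, edgeR). The call without the block was close to the threshold. It was lost in 5 of the 6 fits that left out a library, with an adjusted p-value of at most 0.131, and held without DMSO replicate 3. It was also lost with no filter on low counts (adjusted p = 0.124), with limma-voom (0.0516) and with limma on log2(FPKM + 1) and log2(FPKM + 0.1) (0.0549 and 0.0548).

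The 12 mature oligodendrocyte markers had 11 log2 fold changes below 0 and none was without counts. Of these markers 2 were called lower without the block and 7 with it (edgeR), and in 4 the groups did not overlap. Their summed level stood in the same order over the 6 libraries as Adamts4 and Adam11. That order ran from DMSO replicate 1 through DMSO replicates 2 and 3 to ZJU-37 replicates 2, 1 and 3. Per 1000 CPM of these markers, Adamts4 had 13.8, 13.1 and 14.6 CPM in DMSO and 13.5, 13.4 and 17.7 CPM in ZJU-37, and the groups overlapped. Adam11 had 3.13, 3.53 and 4.22 CPM in DMSO and 2.44, 2.95 and 3.25 CPM in ZJU-37 on the same scale. These groups overlapped too. On this scale Adam11 was lower with ZJU-37 in all 3 pairs of same-numbered libraries and Adamts4 in 1 of the 3. The part of these markers in the Adamts4 and Adam11 values was not tested.

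**Figure D4:**
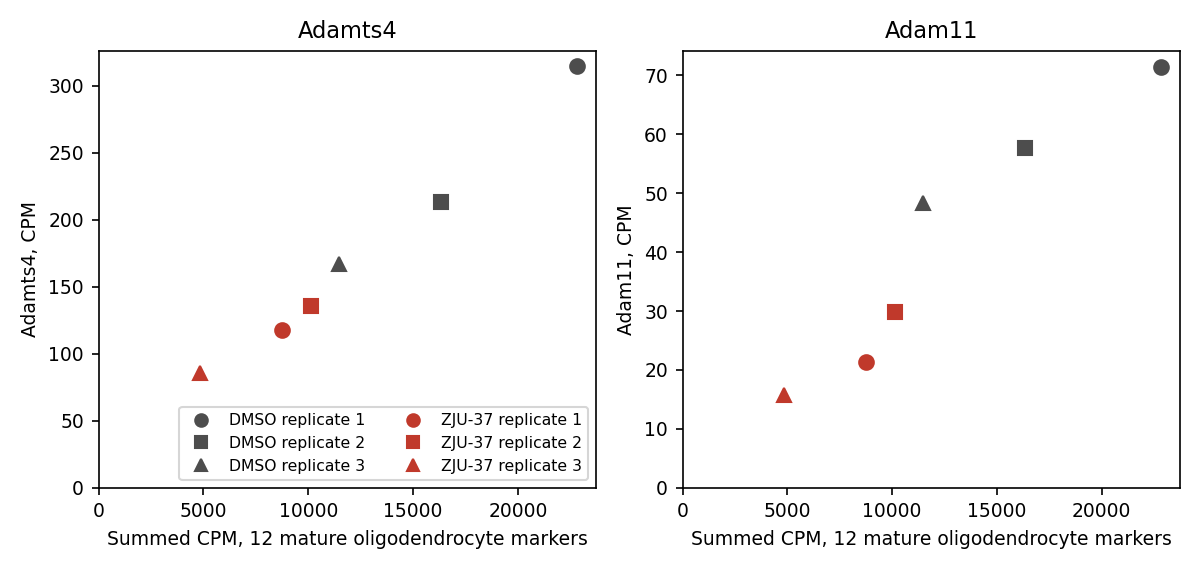
CPM of Adamts4 (left) and Adam11 (right) against the summed CPM of 12 mature oligodendrocyte markers, with 1 point per library (grey DMSO, red ZJU-37; circle, square and triangle for replicates 1, 2 and 3). Both genes and the marker sum fall in the same order, from DMSO replicate 1 (Adamts4 at 315 CPM, markers at 22825 CPM) to ZJU-37 replicate 3 (85.7 and 4838 CPM).

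Members of the family that did not pass the threshold without the block included Adamts3, a processor of procollagen and of the VEGF-C precursor, at 20.8 ± 1.87 CPM in DMSO and 16.2 ± 1.60 CPM in ZJU-37 (mean ± SD, n = 3 each). Its groups did not overlap, and the adjusted p-value was 0.0839 without the block and 0.0144 with it (edgeR). Adamts14, another procollagen processor, had 10.4, 15.4 and 18.4 CPM in DMSO and 13.2, 22.6 and 20.5 CPM in ZJU-37. The groups overlapped, each ZJU-37 library was above its DMSO pair, and the adjusted p-value was 0.463 without the block and 0.0312 with it (edgeR). Adamts17 had 2.80 ± 0.866 CPM in DMSO and 1.69 ± 0.573 CPM in ZJU-37 (mean ± SD, n = 3 each), with adjusted p-values of 0.228 and 0.0379 in the same 2 fits (edgeR). Adamts5, the other main aggrecanase, had 2.52 ± 0.482 CPM and 4.16 ± 1.13 CPM (mean ± SD, n = 3 each), and its adjusted p-value was 0.132 without the block and 0.0773 with it (edgeR). Another 7 tested ADAMTS genes, at mean levels under 10 CPM, were called in neither fit. Their log2 fold changes ran from -0.73 with a standard error of 0.54 (Adamts2) to 1.40 with a standard error of 0.55 (Adamts19), and Adamts6, Adamts8, Adamts9, Adamts12 and Adamts15 lay between them. The annotated span of Adamts13 overlaps that of Cacfd1 on the same strand, so its 836 counts are uncertain. Of the 2 untested ADAMTS genes, Adamts18 had 34 counts in all and the other under 10.

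The ADAMTS-like proteins lack the protease domain and are parts of the matrix. All 4 tested genes had log2 fold changes below 0. Adamtsl3 had 19.7, 15.3 and 14.9 CPM in DMSO and 7.62, 11.3 and 11.5 CPM in ZJU-37. Its groups did not overlap and ZJU-37 replicate 1 was the lowest, with an adjusted p-value of 0.0565 without the block and 0.0499 with it (log2 fold change -0.71, edgeR). It passed the threshold in 4 of the 16 alternatives. Beside the block these were DESeq2 (adjusted p = 0.00741), and edgeR with no filter on low counts (0.0437) or after thinning (0.0406). Adamtsl2, Adamtsl4 and Adamtsl5 passed the threshold in neither fit.

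**Figure D5:**
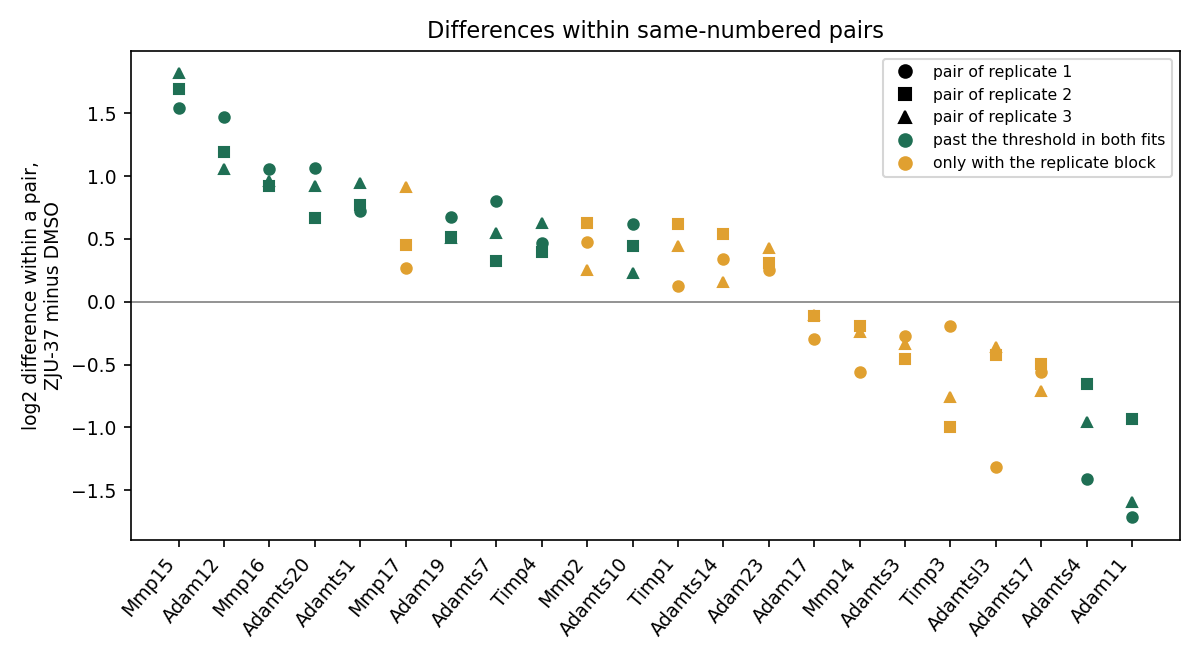
Log2 difference of ZJU-37 minus DMSO within the pairs of replicate 1 (circle), 2 (square) and 3 (triangle), for the 22 members called with the replicate block. Green points are the 11 genes also called without the block and yellow points the other 11. All 3 pairs of each gene lie on the same side of 0, which choosing the genes by the blocked fit favours, from Mmp15 at 1.54 to 1.82 to Adam11 at -1.72 to -0.94.

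Genes that act beside these proteases were listed in 7 groups with 90 names, of which 78 genes were tested, and 7 of these were higher and 5 lower in edgeR, or 15.4%. Of all tested genes 15.0% were called, so without the block the share in these lists was close to the background. With the block 37 of the 78 were called, against 32.1% of all tested genes. In the fit without the block that left out DMSO replicate 2, 7 of the 78 passed, as did 1306 of all 14940 genes tested there. A list of 13 partners of ADAMs, all tested, included 4 that rose and 0 that fell without the block. Like the other lists, it was chosen with earlier results of these data known. Of its log2 fold changes 8 were below 0, and the median was -0.08. The 4 that rose were 2 scaffolds known to bind ADAM12, ADAM15 and ADAM19 and 2 regulators of ADAM17. Sh3pxd2a, which encodes the scaffold TKS5, rose from 45.2 to 156 CPM on average (log2 fold change 1.79, adjusted p = 1.21e-04, edgeR). The related scaffold Sh3pxd2b had a log2 fold change of 0.38 (adjusted p = 0.0319, edgeR). Frmd8 and Rhbdf1, which encode a binding protein of the iRhoms and an iRhom that carries ADAM17 to the cell surface, rose as well, by log2 fold changes of 0.39 and 0.31 (adjusted p = 0.00385 and 0.0176, edgeR). With the block, 5 genes of the list were lower, among them Pacs2, which encodes a sorting protein that returns ADAM17 to the cell surface (log2 fold change -0.60, adjusted p = 0.0720 without the block and 9.75e-04 with it, edgeR).

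Of 6 ligands and partners of ADAM22 and ADAM23, 1 passed the threshold. Lgi4, a secreted ligand of ADAM22, rose from 3.26 to 7.69 CPM on average (log2 fold change 1.24, adjusted p = 0.00269, edgeR). Lgi3, of the same ligand family, had a log2 fold change of -0.79 (adjusted p = 0.0972 without the block and 0.00198 with it, edgeR). Of 16 tested lecticans and other matrix substrates, 2 rose and 4 fell without the block, where 15.0% of all tested genes were called. With the block 5 were higher and 8 lower, against 32.1% called of all tested genes. The lecticans Acan, Vcan and Bcan, substrates of ADAMTS proteases, had log2 fold changes of -2.53, -1.29 and -0.72 (adjusted p = 0.00194, 0.00378 and 0.0392, edgeR), and Tnr, a tenascin that binds them, had -3.48. Cspg4 and Reln were the 2 that rose without the block, with log2 fold changes of 1.04 and 0.49. Of 12 tested EGF family ligands and receptors, 1 fell and none rose without the block. This was Tgfa, a ligand released by ADAM17, which fell from 172 to 102 CPM on average (log2 fold change -0.76, adjusted p = 0.0230, edgeR). With the block 1 of the 12 was higher and 3 were lower. Egf had a log2 fold change of -0.65 and an adjusted p-value of 0.353 (edgeR).

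The plasminogen activation genes, the astacins with other regulators of metalloproteases, and the proprotein convertases had 9, 14 and 8 tested genes. In these 3 groups edgeR called 0 genes, with 0, 2 and 1 genes at an unadjusted p-value under 0.05. With the block it called 1, 6 and 1, where 32.1% of all tested genes were called. Among them, Pcsk6, a convertase that activates proproteins, had a log2 fold change of -0.59 (adjusted p = 0.0707 without the block and 0.00175 with it, edgeR). Thbs2, which encodes a thrombospondin that clears MMP2, had -1.01 (adjusted p = 0.180 without the block and 5.25e-04 with it, edgeR), and the brain serpin gene Serpini1 had -0.59 (adjusted p = 0.211 without the block and 4.99e-04 with it, edgeR). A2m, Serpinf2 and Pcsk4, each among the 2 largest changes of its group, had log2 fold changes of -1.54, -0.48 and -0.49 and were called in neither fit.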

How the data were processed

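The data are RNA-seq libraries of cultured OPCs, 3 with DMSO and 3 with ZJU-37. Per the labels, reads were aligned with HISAT2 2.0.5 and counted with featureCounts 1.5.0. StringTie 1.3.3b is also named there, and the genome build is not given in the sources used here. The raw counts per gene deposited by the authors carry no normalization. The FPKM values deposited by the authors were made from counts and gene length, and were used for levels between genes. Columns of the authors' own comparison (group means, fold changes and p-values) were not used.

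Counts of all genes were filtered with filterByExpr (minimum count 10), scaled by TMM and analysed in R 4.3.3 with the quasi-likelihood test of edgeR 4.0.16 (robust glmQLFit, then glmQLFTest), and p-values were adjusted over the 14670 tested genes by the Benjamini-Hochberg method. Genes with an adjusted p-value under 0.05 were called. Each standard error is the absolute log2 fold change divided by the square root of F. Log2 differences within pairs used CPM plus 0.5. The scripts were tested on simulated data.

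Across genes, the deviation of a library from the mean of its group correlated with that of the library of the same number in the other group, with r = 0.46, 0.35 and 0.37, against negative values down to -0.31 for other pairs, so a fit with the replicate number, taken from the sample labels, as a block is given where it changes a call. Chi-square values between libraries of a group were at least 11.9 per degree of freedom, and no library was treated as a duplicate.

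The members and gene lists were chosen with earlier results of these data known. Named were all members called in either fit, the TIMPs, 9 well-known proteases, the 10 members of highest FPKM, and list genes that were called or had the 2 largest changes of their list. All other members named were chosen after their values were seen. Sequences came from RefSeq (GRCr8), in which all 75 symbols were found, and proteins were not used here. The alternatives were other normalizations and filters, DESeq2 1.42.0, limma-voom and limma 3.58.1 on log2(FPKM + 1) or log2(FPKM + 0.1), the block, thinning to 13935865 counts and leaving out each library.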

Additional observations from a re-analysis of the deposited data

How the results depend on the processing

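Mmp15, Mmp16, Adam12, Adam19 and Adamts1 kept their direction and an adjusted p-value under 0.05 in all 16 alternatives, and none of the 11 called members changed direction in any of them. With the replicate block the 2201 called genes of the table became 4705, the 11 called members 22 (14 higher, 8 lower), and the 12 called genes of the related lists 37. Among the members it added the 11 calls given in the report and ended none. The lower members numbered 1 with limma-voom and with limma on either FPKM scale, against 2. With each library left out in turn, called genes ran from 1306 to 1927, called members from 5 to 10, higher members from 5 to 9, lower members from 0 to 2 and called list genes from 7 to 12, with fewer libraries in each fit. The log2 fold changes of 6 members that were not called changed sign there. They ran from -0.14 to 0.14 for Adam15, -0.12 to 0.010 for Adam9, -0.27 to 0.017 for Adam17, -0.064 to 0.25 for Adam22, -0.60 to 0.79 for Mmp9 and -0.057 to 0.14 for Timp2. Of the 28 named members' values under the alternatives, 390 of 448 kept direction and side of the threshold. Members that the filter on low counts removed could not be compared at these depths.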
